A study of Homo sapiens with 4 samples.

Results

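The 48 h experiment compared LNCaP cells exposed to 5-azacytidine with LNCaP cells exposed to its vehicle, and it was measured on 2 of the 4 arrays of the series. The arrays were chosen by their labels alone, which give the time, the treatment and the replicate number. LNCaP is an established, androgen-responsive human prostate cancer cell line. Cells of both arms were serum starved for 24 h and then received 1 µM azacytidine or dimethyl sulphoxide (DMSO) for 48 h. Each array carried RNA of DMSO cells in Cy3 and RNA of azacytidine cells in Cy5, so every value is a ratio of treated over vehicle cells at that time. The other 2 arrays hold the same comparison after 24 h. The labels do not say that replicates came from separate cultures, so the p-values rest on the scatter of these few arrays, which may be technical. A ratio carries no level, so the identity of the cells could not be checked from their marker genes, and the same change can come from fewer cells with a transcript or less of it per cell.

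Azacytidine is a cytidine analogue that cells build into RNA and, after reduction, into DNA. In DNA it traps DNA methyltransferases on the strand, so methylation is lost as cells divide, and genes held silent by methylated promoters can be transcribed. Its incorporation also damages DNA and RNA, and it is known to slow division and to raise germline, interferon-response and stress genes in cancer cells.

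The 48 h ratios covered 18334 genes, and 7759 of these were read by more than 1 array feature. By limma against a log2 ratio of 0, 3329 genes (18.2% of those tested) were higher in azacytidine cells and 3787 (20.7%) were lower, at an adjusted p under 0.05. The 48 h replicates spread more than the 24 h replicates, with a median absolute difference of 0.33 against 0.13 log2 units per gene, and the fit pools both. With weights that let each time have its own spread, 1758 genes were higher and 2049 lower, and all 3807 were among the calls above. The calls lean on the 24 h arrays for their estimate of error: in a limma fit of the 48 h arrays alone no gene passed. There the smallest adjusted p was 0.0929, and 6313 genes had an unadjusted p under 0.05. The same 0 calls were left when either 24 h array was omitted. A second count without any test asked for a 2-fold difference in the same direction on both 48 h arrays, which 1757 genes met upwards (9.58%) and 1808 downwards (9.86%). Against 24 h, the limma test of the difference called 1802 genes higher at 48 h (9.83%) and 2409 lower (13.1%). Genes are said to have risen or fallen where the unweighted fit called them, and values are log2 ratios on 48 h replicates 1 and 2 unless a time is named. Counts for gene groups are to be read against these shares and against the median of all genes, which was 0 on each array. Features listed at exactly 0 contribute to that median, and the other features had medians between -0.065 and -0.018. With ratios centred this near 0 on every array, a shift shared by most genes could not be seen.

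The largest ratios were mostly upwards. At least 8-fold on both arrays, 297 genes were higher and 23 were lower. Of the 1757 genes that were 2-fold higher, 951 had been so at 24 h as well, out of 1816 at that time. Of the 1808 genes that were 2-fold lower, 202 had been so at 24 h, out of 815.

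**Figure D1:**
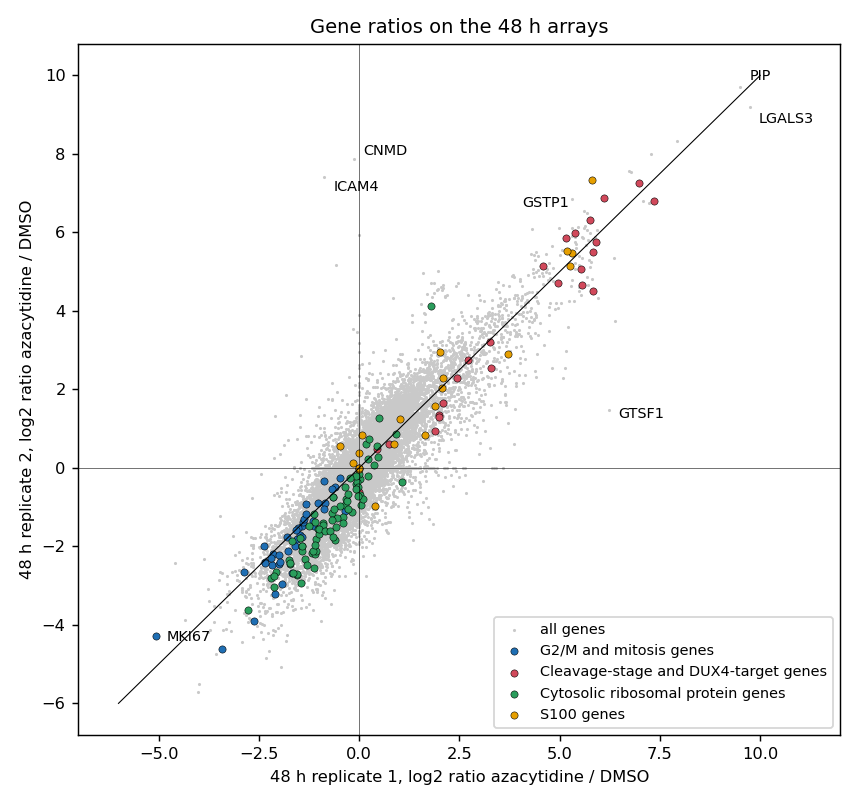
Log2 ratio of azacytidine over DMSO for 18334 genes on 48 h replicate 1 (horizontal) and 48 h replicate 2 (vertical), with 4 gene lists in colour and the diagonal marking equal values. Mitosis genes lie below 0 on both arrays, most cleavage-stage genes and several S100 genes lie far above, and PIP and LGALS3 stand at the top right, while CNMD and ICAM4 are high on replicate 2 alone.

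Genes measured by several features that all moved at least 2-fold numbered 174 upwards and 278 downwards, out of 522 and 797 genes with several features whose mean moved that far. Features that carry the same accession may be repeats of 1 probe, and are then not separate support. The highest by its weakest feature was ZSCAN4, a transcription factor of the earliest embryonic divisions, at 6.09 and 6.88 on replicates 1 and 2. Both arrays were high, and limma gave an adjusted p of 0.014, which was 0.059 when the arrays were weighted by time. GSTP1, the glutathione transferase whose promoter is methylated in most prostate cancers, stood at 5.61 and 6.54 (mean 6.07, SD 0.66, n = 2), with its 10 features between 5.995 and 6.19. That is a mean of 67.4-fold, with a limma adjusted p of 0.0093. SPANXA1, a sperm-associated antigen of the X chromosome, stood at 5.94 and 6.05, with a limma adjusted p of 0.0071. The replicates of GSTP1 differed more than those of SPANXA1, and neither gene came near 0 on either array. SPANXA1 has near-identical neighbours, so its features may also read those.

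The promoter windows of these genes, 250 bases before to 50 after the annotated start, are shown with that of MKI67, the proliferation marker with the lowest ratio among the mitosis genes, as examples of windows rich and poor in CG on either side of 0. They are from RefSeq, build GRCh38.p14, on the gene's strand, and capitals mark CG, the dinucleotide that DNA methyltransferases modify. GSTP1 lies on the plus strand at chr11:67583562-67583861, MKI67 on the minus strand at chr10:128126374-128126673, ZSCAN4 on the plus strand at chr19:57668685-57668984 and SPANXA1 on the minus strand at chrX:141584689-141584988.
GSTP1: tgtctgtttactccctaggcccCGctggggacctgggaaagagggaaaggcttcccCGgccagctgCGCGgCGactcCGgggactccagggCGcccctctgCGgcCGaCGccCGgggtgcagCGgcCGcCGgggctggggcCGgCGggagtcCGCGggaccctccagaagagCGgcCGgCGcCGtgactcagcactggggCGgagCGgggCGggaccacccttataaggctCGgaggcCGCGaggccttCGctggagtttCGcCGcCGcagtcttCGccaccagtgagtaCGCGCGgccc
MKI67: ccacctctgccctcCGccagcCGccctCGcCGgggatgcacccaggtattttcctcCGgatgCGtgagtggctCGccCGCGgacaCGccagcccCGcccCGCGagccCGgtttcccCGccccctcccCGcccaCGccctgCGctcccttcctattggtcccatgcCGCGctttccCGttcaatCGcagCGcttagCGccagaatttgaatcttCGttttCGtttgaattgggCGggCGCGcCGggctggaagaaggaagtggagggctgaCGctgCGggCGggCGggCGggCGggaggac
ZSCAN4: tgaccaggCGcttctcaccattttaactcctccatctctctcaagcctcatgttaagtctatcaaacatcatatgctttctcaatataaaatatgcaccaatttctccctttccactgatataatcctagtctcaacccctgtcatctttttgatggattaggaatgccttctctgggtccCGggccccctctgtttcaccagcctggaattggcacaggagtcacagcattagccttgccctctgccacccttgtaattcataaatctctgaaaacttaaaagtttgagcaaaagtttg
SPANXA1: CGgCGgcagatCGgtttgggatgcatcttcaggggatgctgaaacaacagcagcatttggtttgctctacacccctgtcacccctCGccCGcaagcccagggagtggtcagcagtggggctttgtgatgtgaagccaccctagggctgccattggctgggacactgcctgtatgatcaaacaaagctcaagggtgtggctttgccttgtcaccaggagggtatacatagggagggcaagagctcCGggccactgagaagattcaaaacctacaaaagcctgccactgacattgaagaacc
The windows of GSTP1 and MKI67 each hold 36 CG, and these genes lay on opposite sides of 0. ZSCAN4 holds 2 and SPANXA1 holds 6, and both were high. CG reads the same on both strands, and 98.5% of the 13627 protein-coding windows compared hold at least 1, with a median of 23.

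Other genes supported by every feature had varied roles. PLAT, the tissue plasminogen activator, stood at 5.30 and 5.91, and EDN1, the precursor of the vasoconstrictor endothelin-1, at 4.99 and 6.11, each over 10 features. PTN, a heparin-binding growth factor, stood at 5.68 and 6.05, and CSTA, a cysteine protease inhibitor of epithelia, at 5.75 and 5.12. MSMB, the prostate secretory protein beta-microseminoprotein, stood at 5.48 and 5.18. All 5 are at least 2-fold higher in every feature on both arrays by the rule that chose them. KCNK17, a potassium channel, GPRC5A, an orphan receptor of epithelia, FAM90A1 and the secretoglobin SCGB2A1 completed the 12 highest, with lowest supporting values between 4.07 and 4.18 log2 units. All 12 had been above 0 at 24 h as well, with means from 2.64 to 5.48.

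Among genes with all features lower, the kappa opioid receptor gene OPRK1 stood at -3.63 and -3.93 and the mannosidase gene MANEA at -3.40 and -4.14. TMEM38B, which encodes a cation channel of the endoplasmic reticulum, stood at -3.57 and -4.74. These 3 were low on both arrays, with limma adjusted p of 0.0071, 0.011 and 0.016. LYPLA1, an enzyme that removes palmitate from proteins, stood at -2.89 and -2.52 at 48 h and at 2.56 and 2.35 on the 24 h arrays, so it was on opposite sides of 0 at the 2 times. RAB29, a small GTPase, and RIC8B, a chaperone of G protein subunits, were near 0 at 24 h (means 0.085 and -0.050). At 48 h RAB29 stood at -2.69 and -2.51 and RIC8B at -3.18 and -2.65. TLL1, a protease of the extracellular matrix, and PRAC1, a nuclear protein of prostate and colon, were low at both times, with 48 h values of -3.29 and -3.41 for TLL1 and -2.77 and -3.09 for PRAC1. AIDA, RANBP3L, SEPTIN3 and SHF were the others, with 48 h means between -3.59 and -2.65.

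**Figure D2:**
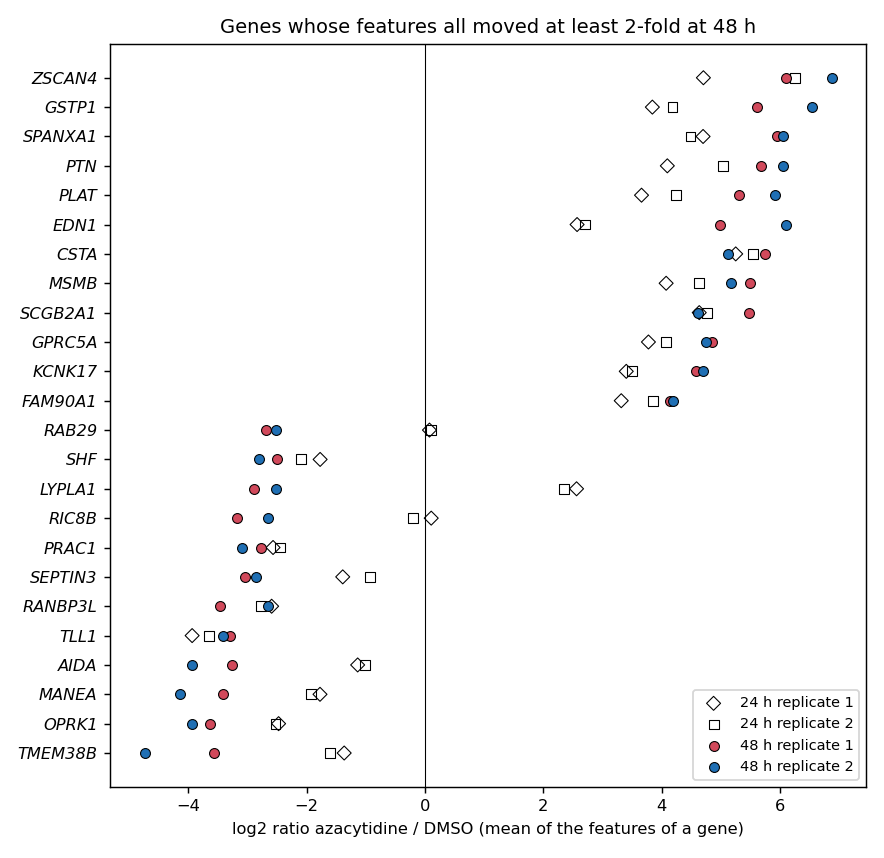
Log2 ratio of azacytidine over DMSO on each of the 4 arrays for the 12 genes highest and the 12 lowest among those whose features all moved at least 2-fold on both 48 h arrays. The higher genes are high at both times, while LYPLA1 is above 0 on the 24 h arrays and below it on the 48 h arrays, and RAB29 and RIC8B are near 0 at 24 h.

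Many germline and early embryonic genes were raised, and the cleavage-stage list had the highest median of the 57 lists. Of 25 measured genes of the cleavage-stage embryo and targets of its activator DUX4, 19 rose, none fell, and 16 were called with weighted arrays. Their median was 4.84, against 0 for all genes. TRIM43, a gene of the cleavage-stage embryo, stood at 6.98 and 7.26 (limma adjusted p 0.0073), and PRAMEF1, of a multicopy family of that stage, at 5.53 and 5.07 (limma adjusted p 0.0071). Both were far above 0 on both arrays. RFPL4A was the lowest of the list at 0 and -0.61 and was not called. Many of these genes have near-identical copies, so a feature may read several.

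Of 51 genes of meiosis and of the piRNA pathway, which silences transposons in germ cells, 24 rose and 3 fell, or 18 and 2 with weighted arrays, with a median of 1.02. MAEL, a piRNA pathway protein, stood at 7.08 and 6.79 (limma adjusted p 0.0071). SYCP3 and SYCE1, proteins of the synaptonemal complex that joins paired chromosomes, were measured by 1 feature each. SYCP3 stood at 5.37 and 5.08 and SYCE1 at 4.74 and 4.97, so all 3 genes were high on both arrays. ASZ1, another piRNA pathway gene, was the lowest at -0.63 and -3.11, without passing the test.

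X-linked cancer-testis genes are expressed in testis and in many tumours. Of 47 measured, 22 rose and 6 fell (46.8% and 12.8%, against 18.2% and 20.7% of all genes). With weighted arrays 17 rose and 5 fell, and 6 of the 47 genes were listed at 0 on both 48 h arrays. Their median was 0.94 (by array 1.58 and 0.9998) at 48 h and 2.24 at 24 h. PAGE2 stood highest at 6.78 and 7.54, and CT45A1 stood at 5.87 and 5.88. CTAG1A, which encodes the tumour antigen NY-ESO-1, stood at 4.31 and 4.47. PAGE4, a member that prostate tissue expresses, stood at -2.09 and -2.75 (limma adjusted p 0.018). PAGE2 and PAGE4 thus lay on opposite sides of 0 on both arrays. Of 25 pluripotency genes, 9 rose and none fell (median 0.70, 4 rose with weighted arrays), led by KLF17 (3.18 and 2.70, not called with weighted arrays) and including DPPA2 (1.09 and 1.16), both known from early embryos.

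Galectins, S100 genes and secreted epithelial genes rose in shares of 53.8%, 47.4% and 58.6%, against 18.2% of all genes. Not every epithelial list did so: 17.4% of keratin genes and 13.8% of keratin-associated and cornified envelope genes rose. The highest gene of the lists was PIP, the prolactin-induced protein of secretory glands, at 9.51 and 9.70 (SD 0.14, n = 2), a mean of 778-fold (limma adjusted p 0.0071). LGALS3, which encodes galectin-3 and is methylated in many prostate tumours, stood at 9.73 and 9.20, a mean of 706-fold. Each was read by 1 feature, and each was the highest of its list on both arrays. Of 29 secreted epithelial genes (median 1.48) 17 rose, or 13 with weighted arrays, including AGR2, a disulphide isomerase of mucus-secreting cells, at 5.59 and 6.11, and TFF1, a trefoil peptide, at 3.14 and 2.91. TFF3, another trefoil peptide, was the exception that fell, at -1.73 and -1.67.

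Of 19 S100 genes, which encode small calcium-binding proteins, 9 rose and none fell (6 rose with weighted arrays), with a median of 1.24. S100A10 stood at 5.31 and 5.48, S100P at 5.17 and 5.52 and S100A6 at 5.81 and 7.33. S100A6 was highest but its replicates were far apart, so its limma adjusted p was 0.018 and it was not called with weighted arrays (adjusted p 0.057). S100A3 stood at 0.39 and -0.98, on opposite sides of 0. Of 13 galectins 7 rose and none fell (median 0.75), among them LGALS7 at 2.86 and 3.07, a galectin of stratified epithelia whose copy LGALS7B is near-identical.

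Proteins that act on the matrix also moved. TIMP1, an inhibitor of metalloproteinases, stood at 5.76 and 5.98, and MMP7, the metalloproteinase matrilysin, at 5.30 and 4.80. MMP11 was lower at -1.26 and -1.18. Of 27 metalloproteinase and inhibitor genes, 10 rose and 5 fell (median 0.54, 3 fell with weighted arrays). CD44, the hyaluronan receptor, stood at 5.01 and 5.43 (limma adjusted p 0.0073), but its 12 features ran from -0.18 to 6.72. Of 47 collagen, laminin and integrin genes 17 rose and 6 fell (median 0.30, by array 0.21 and 0.34, and 6 rose with weighted arrays). LAMB3, a laminin of epithelial basement membranes, was high at 4.45 and 5.03, and ITGB1, the common beta subunit of matrix integrins, was low at -2.48 and -2.62 over 12 features.

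Of 49 genes known for methylated promoters in prostate cancer, 10 rose and 6 fell. The 20.4% that rose lay near the 18.2% of all genes, so this share is no result about the list. Their median was 0.15 (by array 0.21 and 0.029, and 3 fell with weighted arrays). The list ran from LGALS3 to APC, a regulator of the WNT pathway, at -2.82 and -3.30 over 11 features between -4.04 and -0.86. PDLIM4, a cytoskeletal adaptor, stood at 2.30 and 2.54, clearly above 0 on both arrays, and 5 genes of the list were at 0 on both.

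Mitosis genes were lower throughout. Of 40 measured genes of the G2 phase and mitosis, 38 fell and none rose, 34 fell with weighted arrays, and all 40 were below 0 on both arrays. The median was -1.64 at 48 h and -1.57 at 24 h, and 8 genes were called lower and 6 higher at 48 h than at 24 h. MKI67 stood at -5.07 and -4.27 at 48 h, a mean of 25.5-fold lower (SD 0.56 log2 units, n = 2), and at -2.08 and -1.95 at 24 h. FOXM1, a transcription factor of mitotic genes, stood at -2.35 and -2.43, and BIRC5, the inhibitor of apoptosis survivin that acts in chromosome segregation, at -2.34 and -2.39 over 10 features. These 3 genes were lower at 48 h than at 24 h by the limma test of the difference, with adjusted p of 0.042, 0.025 and 0.033. NUF2, a kinetochore protein, moved the other way, from -2.52 at 24 h to -1.53 at 48 h, and ESPL1, the protease separase, was nearest to 0 at -0.46 and -0.26.

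S phase genes fell less evenly. Of 45 measured, 22 fell (10 with weighted arrays) and 1 rose, with a median of -0.97 against -0.56 at 24 h. ORC1, a subunit of the origin recognition complex, stood at -1.79 and -1.90, and UNG, which removes uracil from DNA, at -2.03 and -2.15, after a mean of 0.92 at 24 h. TK1, the thymidine kinase of dividing cells, stood at -1.63 and -1.49 with a mean of -1.78 at 24 h. POLA1, the catalytic subunit of DNA polymerase alpha, was the one that rose, at 0.63 and 0.79. RFC2, a subunit of the clamp loader, was lowest at -2.17 and -3.73, with replicates far apart and a limma adjusted p of 0.038.

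Of 7 inhibitors of cyclin-dependent kinases, 3 rose and 2 fell (median 0.37, by array 0.68 and -0.0049). CDKN2B, which encodes p15, stood at 2.77 and 2.73 (limma adjusted p 0.0071). CDKN1A, which encodes p21, stood at 0.74 and -0.0049 at 48 h, was not called (limma adjusted p 0.31), and had stood at 2.38 and 2.56 at 24 h. The limma adjusted p of its difference between the times was 0.048. At 48 h the 11 features of CDKN1A ran from 0.15 to 1.79. Of these, 1 was at least 2-fold higher on both 48 h arrays. CDKN3, a phosphatase of dividing cells, fell, at -2.11 and -2.68.

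Of 60 histone genes measured, 17 rose and 10 fell (28.3% and 16.7%, against 18.2% and 20.7% of all genes). Their median was 0.083 (by array 0.34 and -0.061), and 2 fell with weighted arrays. The linker histone gene H1-1 stood at 2.05 and 2.20 and H1-5 at -3.10 and -2.22. Histone genes of a class share much sequence, so single ratios may mix members. Of 35 DNA damage signalling and repair genes 3 rose and 9 fell (median -0.21, by array -0.29 and -0.14, and 1 rose and 4 fell with weighted arrays), with EXO1, an exonuclease of mismatch repair and recombination, at -1.44 and -1.46 and RAD54B, a recombination helper, at 1.104 and 1.19.

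The gene of azacytidine's own target, the maintenance methyltransferase DNMT1, was modestly lower at -0.72 and -0.65 on 1 feature (limma adjusted p 0.012). Among 20 genes that write, read or remove DNA methylation, 3 rose and 7 fell, with a median of -0.035 (3 fell with weighted arrays). DNMT3L, a germ-cell cofactor of the de novo methyltransferases, was highest at 2.53 and 2.84. TET1, which oxidises methylcytosine, was lowest at -2.63 and -2.66. The replicates of these 3 genes lay close together. Of 41 histone modifiers 10 fell and 2 rose (median -0.071, by array -0.18 and 0, and 0 rose with weighted arrays). KDM1A, the demethylase LSD1, stood at -1.97 and -1.77 after 0.75 at 24 h, and TRIM28, a corepressor that silences retroelements, at -1.69 and -1.52 after 0.62. The 2 features of TRIM28 stood at -2.64 and -0.57.

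Many genes of protein synthesis were lower at 48 h, where at 24 h their medians had lain near or above 0. Of 77 cytosolic ribosomal protein genes, 36 fell (21 with weighted arrays) and 2 rose, and 17 were called lower at 48 h than at 24 h. Their median was -1.04, against 0.049 at 24 h, but it was -0.66 on replicate 1 and -1.37 on replicate 2. RPS3A, of the small subunit, was lowest at -2.76 and -3.62 (limma adjusted p 0.015), and RPS2 stood at -1.67 and -1.86. RPL27A was one of those that rose, at 0.91 and 0.86. RPL39L, a ribosomal protein gene enriched in testis, was highest at 1.80 and 4.13 without passing the test. The 6 features of RPS3A ran from -3.54 to -2.61 and the 6 of RPS2 from -3.08 to 0.089. Ribosomal protein genes have many processed pseudogenes, so features may read several transcripts.

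Of 44 translation factor genes 20 fell (14 with weighted arrays) and 2 rose, with a median of -0.62 (by array -0.49 and -0.79) against 0.28 at 24 h. EEF1A1, which delivers aminoacyl-tRNA to the ribosome, stood at -2.39 and -2.48 (limma adjusted p 0.0071) and had a mean of 0.75 at 24 h. EEF2K, the kinase that inhibits elongation, was highest at 1.21 and 1.47. The 2 genes lay on opposite sides of 0 on both arrays. Of 31 constitutive proteasome subunits 10 fell (6 with weighted arrays) and 1 rose, with a median of -0.61 (by array -0.53 and -0.80). The lower ones included PSMC3, an ATPase of its cap, at -2.02 and -2.24 and PSMD2, of the same cap, at -1.30 and -1.53. PSMB4, of the core, was the one that rose, at 0.25 and 0.22, but it was not called with weighted arrays (limma adjusted p 0.078).

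For energy supply the share of lower genes lay near the background and is no result about the list. Of 76 respiratory chain and ATP synthase genes 16 fell and 8 rose (10 and 4 with weighted arrays), and the median was -0.46. ATP5F1B, the catalytic beta subunit of ATP synthase, stood at -2.64 and -2.48 after 1.19 at 24 h, and SDHA, of complex II, at -1.44 and -1.41 after 0.84. COX7A1, a muscle isoform of a cytochrome oxidase subunit, was the exception at 5.41 and 5.59. The median of the list was -0.12 on replicate 1 and -0.80 on replicate 2, so its size rests mainly on replicate 2. Mitochondrial ribosomal protein genes had 24 lower and 3 higher of 76, and a median of -0.46 (by array -0.32 and -0.63, and 1 rose and 6 fell with weighted arrays).

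In RNA processing and transcription, 23 of 60 splicing factor genes fell and 5 rose (median -0.48, by array -0.28 and -0.48, and 1 rose and 12 fell with weighted arrays). SF3B4, of the U2 complex, was lowest at -3.76 and -4.19 and had a mean of 0.82 at 24 h, while SNRPD3, a core snRNP protein, rose to 0.64 and 0.65. Of 29 Mediator subunit genes 12 fell, including the kinase CDK8 at -2.70 and -2.70, and 4 rose (median -0.59, by array -0.25 and -0.66, and 5 fell with weighted arrays), including its paralogue CDK19 at 1.35 and 1.34. CDK8 and CDK19 thus moved in opposite directions on both arrays. Ribosome biogenesis genes were closer to the background, with 17 lower and 14 higher of 60 and a median of -0.16 (by array -0.025 and -0.18, and 4 rose and 10 fell with weighted arrays). Of 45 lysosome and proton pump genes 15 fell and 7 rose (median -0.35, 3 rose and 7 fell with weighted arrays), and 18 were called lower than at 24 h, with ATP6V1B2, a proton pump subunit, at -2.45 and -2.41 after 1.18.

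**Figure D3:**
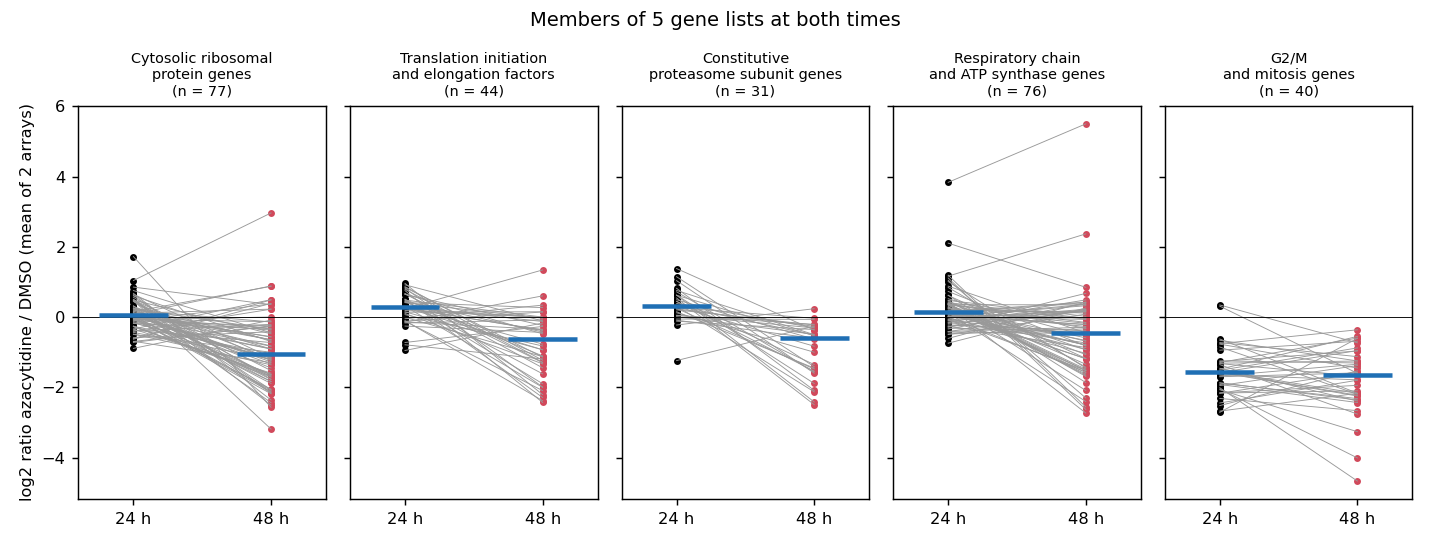
Log2 ratio of azacytidine over DMSO (mean of 2 arrays) at 24 h and 48 h for each gene of 5 lists, with lines joining a gene's values and blue bars at the list medians. Ribosomal protein, translation factor, proteasome and respiratory chain medians lie between 0.05 and 0.31 at 24 h and between -1.04 and -0.46 at 48 h, whereas the mitosis medians are -1.57 and -1.64.

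Metabolic genes went both ways within each list. Against 20.7% of all genes, 30% of hypoxia and glycolysis genes fell. Of sterol and fatty acid genes 23.5% fell, and of nucleotide synthesis genes 25.6%. The lower shares of the sterol and nucleotide lists lay near the background and are no result about them. In glycolysis, ENO1, the enzyme enolase, stood at -2.04 and -2.41 after 1.11 at 24 h, and PGM1, which links glycogen and glucose phosphates, at -2.01 and -2.01 after 1.68. The hypoxia-inducible genes ADM and ANGPTL4 of the same list rose, with ADM, the peptide adrenomedullin, at 4.03 and 4.13 over 10 features and ANGPTL4, an inhibitor of lipoprotein lipase, at 3.37 and 3.52. The list as a whole had 9 higher and 12 lower of 40 (median -0.097, by array 0.080 and -0.25, and 3 fell with weighted arrays). In sterol synthesis, NSDHL stood at -2.14 and -2.12 after 0.80, and MSMO1 at -2.93 and -4.44 after 1.02. SQLE, which makes squalene epoxide in the same pathway, rose to 1.37 and 1.80. Of 34 genes of sterol and fatty acid synthesis 8 fell and 4 rose (median -0.34, by array -0.11 and -0.20).

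Nucleotide synthesis genes were lower in 10 of 39 and higher in 3, with a median of -0.52 (by array -0.42 and -0.81, and 6 fell with weighted arrays). ADSL, of purine synthesis, stood at -1.65 and -1.74 and DCTPP1, which hydrolyses dCTP and its analogues, at -1.77 and -2.17 after 1.67 at 24 h. Of 39 glutathione and antioxidant genes 11 fell and 6 rose (median -0.45, by array -0.13 and -0.74). GSTM1, another glutathione transferase, stood at -1.47 and -1.59, opposite to GSTP1, and the family shares sequence. SLC7A11, the cystine importer, stood at -2.48 and -2.74, and HMOX1, the haem oxygenase, at 1.97 and 2.30. The antioxidant genes SLC7A11 and HMOX1 thus lay on opposite sides of 0.

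**Figure D4:**
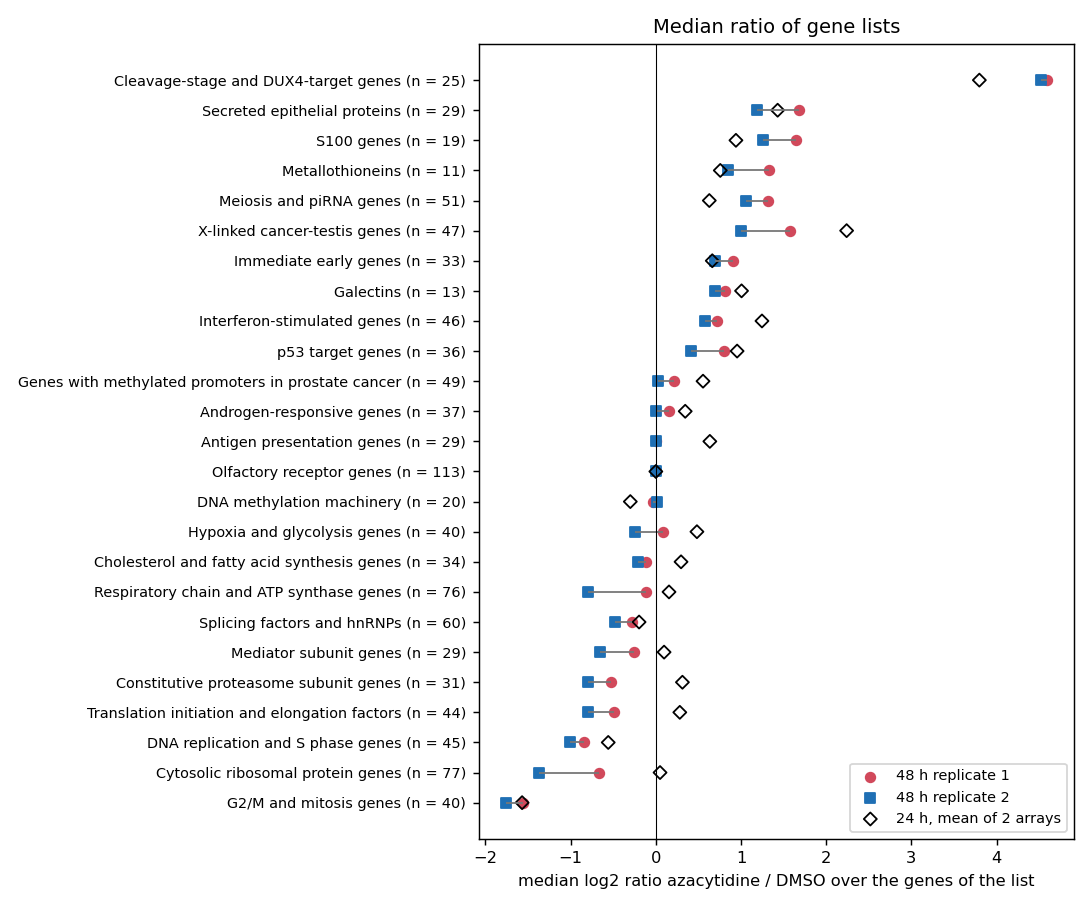
Median log2 ratio of azacytidine over DMSO over the measured genes of 25 lists, on each 48 h array (circles and squares, joined) and as the mean of the 24 h arrays (diamonds). Cleavage-stage genes lie highest and mitosis genes lowest on both 48 h arrays, and ribosomal protein genes have a wide gap between the 48 h arrays.

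Stress and signalling genes moved in smaller groups. Of 36 p53 target genes 14 rose and 4 fell (median 0.55, by array 0.80 and 0.41, and 7 rose and 1 fell with weighted arrays). TRIM22, an antiviral protein that both p53 and interferon induce, stood at 3.92 and 3.96, and TP53I3, a quinone reductase, at 1.91 and 1.97. SESN1, a brake on growth signalling, was lower at -2.35 and -2.58 and CCNG1, a cyclin that p53 induces, at -2.02 and -3.46. Of the p53 list 38.9% rose and 11.1% fell, against 18.2% and 20.7% of all genes. Of 33 immediate early genes 14 rose and 4 fell (median 0.78, 0 fell with weighted arrays), with EGR1, a transcription factor, at 2.79 and 2.59 and IER3 at 4.14 and 4.11. Of 11 metallothionein genes, which encode metal-binding proteins of high sequence similarity, 9 rose and none fell (median 1.08, by array 1.32 and 0.84, and 5 rose with weighted arrays), with MT1M at 4.13 and 4.17.

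Chaperones had 9 higher and 7 lower of 41 (median -0.12, by array 0.17 and -0.21, and 4 rose and 3 fell with weighted arrays). The shares, 22% and 17.1%, lay near the background and are no result about the list. HSPA8, the constitutive HSP70, stood at -2.03 and -2.26 after 1.72 at 24 h, while HSPA6, a strictly inducible HSP70, stood at 2.18 and 2.27. The gene means of the 2 HSP70 genes were on opposite sides of 0 at 48 h. The 5 features of HSPA8 ran from -3.15 to 0.56, with 4 at least 2-fold lower on both arrays. In the unfolded protein response, 8 of 40 genes rose and 12 fell (median -0.11, by array 0.0006 and -0.18, and 4 rose and 6 fell with weighted arrays), with CHAC1, a glutathione-degrading enzyme, at 1.72 and 2.05 and the sensor ATF6 at -1.37 and -1.48. Of 24 BCL2 family genes 5 rose and 9 fell (median -0.31, by array -0.039 and -0.54, and 3 rose and 3 fell with weighted arrays). HRK, a promoter of apoptosis, stood at 1.58 and 2.32 and BCL2L1, which encodes the survival protein BCL-XL, at -0.89 and -0.9998. The 2 features of HRK stood at 0.74 and 3.17, and the 2 of ATF6 at -2.21 and -0.64.

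Interferon-stimulated genes were raised: of 46, 21 rose and 1 fell, and 10 rose with weighted arrays. Their median was 0.64 at 48 h and 1.245 at 24 h. IFI27, a mitochondrial protein induced by type I interferon, stood at 3.95 and 4.32 over 11 features, and XAF1, a promoter of apoptosis, at 4.28 and 5.45. Both were high on both arrays, whereas DDX60, an antiviral helicase, was lowest at -0.33 and -1.62 and not called. Of 29 antigen presentation genes 6 rose and 6 fell (median 0, 3 rose and 1 fell with weighted arrays). Each share was 20.7%, near the 18.2% and 20.7% of all genes, and is no result about the list. Against 24 h, 11 of the 29 were called lower, where 13.1% of all genes were. NLRC5, the activator of HLA class I genes, stood at 1.403 and 1.88, while HLA-E stood at -0.68 and -0.96 after 1.19 at 24 h. Of 38 chemokine and interleukin genes 9 rose and 1 fell (median 0.13, by array 0.053 and 0, and 5 rose and 0 fell with weighted arrays), including CCL28, a mucosal chemokine, at 4.03 and 3.11, and 10 were at 0 on both arrays.

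Prostate genes gave no common direction. Of 37 androgen-responsive genes 12 rose and 7 fell (median 0.070, by array 0.16 and 0). KLK3, which encodes prostate-specific antigen, stood at 1.12 and 1.20 (limma adjusted p 0.0082), but its 3 features ran from -0.12 to 3.03, so the gene mean does not describe each of them. ACP3, prostatic acid phosphatase, stood at -2.36 and -2.77 after 0.055 at 24 h, and MSMB, given above, was the highest of the list. The secretory proteins MSMB and ACP3 thus ended on opposite sides of 0. HOXB13, the homeobox factor of prostate identity, stood at -1.20 and -1.46 with a mean of -1.52 at 24 h. Of 28 genes of androgen receptor cofactors 9 fell and 2 rose (median -0.092, by array -0.24 and -0.11, and 0 rose with weighted arrays), with NCOA4 at -1.81 and -2.57 after 1.002.

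Of 27 enzymes that make or inactivate androgens 8 rose and 6 fell (median 0.19, by array 0.36 and 0.020, and 5 rose with weighted arrays). UGT2B7, which conjugates steroids for excretion, stood at 4.06 and 4.34, and HSD17B2, which oxidises testosterone, at 5.54 and 4.41. STS, the sulphatase that frees steroids from their sulphates, stood at -3.50 and -2.86 after 1.33 at 24 h. UGT2B genes share much sequence, so their ratios may be mixed.

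Markers of other cell types were used to ask whether any moved as a group. Basal epithelial markers had 6 higher and 1 lower of 10 (median 0.97), with KRT15 at 3.39 and 3.62 and ITGA6, the alpha-6 integrin, at -1.46 and -2.28. Luminal markers had 4 higher and 6 lower of 13 (median -0.46, 3 fell with weighted arrays), with KRT19 at 4.07 and 4.63 and the tight junction gene CLDN4 at -1.999 and -1.76 after 1.55 at 24 h. Neither the basal nor the luminal list moved in only 1 direction. Of basal markers 60% rose and 10% fell, and of luminal markers 30.8% and 46.2%, against 18.2% and 20.7% of all genes. Neuroendocrine markers had 5 higher and 2 lower of 15 (median 1.05, 2 rose and 0 fell with weighted arrays), led by UCHL1, a neuronal deubiquitinase, at 4.09 and 3.87. Stromal and mesenchymal markers had 10 higher and 2 lower of 27 (6 and 1 with weighted arrays), with medians of 0.54 and 0.34 on replicates 1 and 2. CNN1, calponin of smooth muscle, stood at 3.53 and 4.21 and LUM, the proteoglycan lumican, at -1.81 and -1.61. The 2 features of LUM stood at -3.41 and 0. Leukocyte and endothelial markers had 7 higher and 0 lower of 23 (4 and 0 with weighted arrays), with medians of 0.63 and 0.25, and 5 at 0 on both arrays. CSF1R, a receptor of macrophages, was highest at 3.94 and 4.26. The part of other cells in any result was not tested. None of these lists was summed, since ratios of different features cannot be added.

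Olfactory receptor genes are mostly silent outside the nose. Of 113 olfactory receptor genes 11 rose, 7 fell and 36 were listed at 0 on both arrays, and the median was 0 (5 rose with weighted arrays). The prostate-expressed members OR51E2 and OR51E1 fell. OR51E2 stood at -2.46 and -2.27 and OR51E1 at -2.44 and -2.63, both low on both arrays as gene means. The 2 features of OR51E2 stood at -4.42 and -0.31, so its mean describes neither. Clustered protocadherin genes, neuronal adhesion genes with shared exons, had 11 lower and none higher of 39 (median -0.29, 5 fell with weighted arrays), with PCDHB14 at -1.252 and -1.245. HOX genes had 7 higher and 2 lower of 29 (median 0.077, 3 rose and 1 fell with weighted arrays), with HOXD8 at 3.81 and 3.86.

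Of 460 numbered ZNF genes, most of them repressors of retroelements or genes, 75 rose and 107 fell, with a median of -0.054 (by array -0.083 and -0.013, and 28 rose and 49 fell with weighted arrays), so that the shares lay near the background. Keratin genes had 8 higher and none lower of 46 (median 0.18, by array 0.26 and 0, and 4 rose with weighted arrays). Imprinted genes, expressed from 1 parental copy, had 5 higher and 6 lower of 31 (median 0.044, by array 0.13 and 0, and 2 rose with weighted arrays). The shares, 16.1% and 19.4%, lay near the background and are no result about the list. NNAT was highest at 3.08 and 3.55, and SNRPN stood at -1.05 and -1.002. The 2 features of SNRPN stood at -1.87 and -0.18, so its mean describes neither. Long intergenic non-coding RNA genes had 32 higher and 22 lower of 300 (median 0, 20 rose and 12 fell with weighted arrays), and 94 at 0 on both arrays. Antisense RNA genes had 58 higher and 33 lower of 326 (median 0, 32 rose and 11 fell with weighted arrays), with TRG-AS1 highest at 3.74 and 4.64. Taste, vomeronasal and beta-defensin genes had 5 higher and 1 lower of 45 (median 0, 3 rose with weighted arrays), and keratin-associated and cornified envelope genes had 8 higher and 1 lower of 58 (median 0.33, by array 0.016 and 0.41, and 3 rose with weighted arrays).

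The counts in each direction differed with the CG number of the promoter, a comparison made without a test. Of 13627 protein-coding genes with a RefSeq promoter window, sorted into 5 equal classes by their number of CG (genes at a boundary number fall in either class), those with 0 to 8 CG were 2-fold higher on both 48 h arrays in 15.5% and 2-fold lower in 4.48%. Those with 35 to 69 CG were 2-fold higher in 6.49% and lower in 12%, against 8.75% and 10.4% over all 13627. At least 8-fold higher were 3.01% of the CG-poorest class and 0.514% of the CG-richest. At 24 h the corresponding 2-fold shares were 14.6% higher and 4.55% lower in the poorest class, and 8.07% and 3.04% in the richest. The richest class thus held a smaller share of lower genes than the poorest at 24 h and a larger share at 48 h. The poorest class also held the most genes listed at 0 on both 48 h arrays, 19.5% against 2.57%, which can move neither way.

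**Figure D5:**
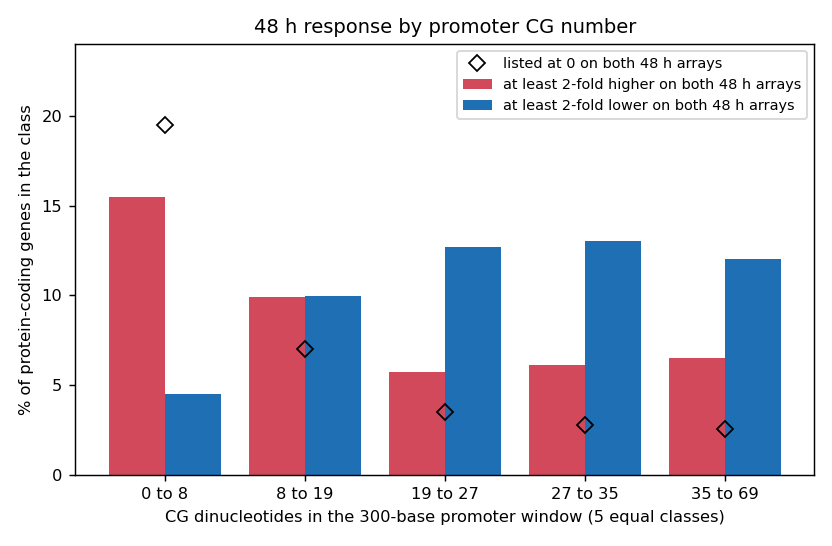
Share of protein-coding genes at least 2-fold higher (red) or lower (blue) on both 48 h arrays, and share listed at 0 on both (diamonds), by number of CG in the promoter window in 5 equal classes, with the share in % on the vertical axis. The upward share is 15.5% in the CG-poorest class and 6.49% in the richest, and the downward share is 4.48% and 12%.

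Neighbouring genes shared a direction at a number of places. In the gene order of GRCh38.p14, 29 runs of at least 3 adjacent measured genes were all 2-fold higher on both arrays, and 23 were all 2-fold lower. Of these runs 4 higher and 4 lower ones held 4 genes. Of all placed genes 9.58% were 2-fold higher and 9.86% lower, so some runs would be met without any link between neighbours. How many was not worked out, so the number of runs is no result about neighbours. Runs of higher genes of 1 family included PRB3, PRB4, PRB1 and PRB2, salivary proline-rich proteins on chromosome 12 with means from 1.17 to 4.15. They also included GBP3, GBP1 and GBP2, interferon-induced GTPases on chromosome 1, with means from 2.26 to 4.33, and S100A2, S100A16 and S100A14 on the same chromosome, with means from 2.18 to 5.21. HBM, HBA2 and HBA1, alpha-type globin genes of chromosome 16, stood at means from 1.73 to 3.01. Members of these family runs resemble each other in sequence, so shared hybridisation and shared change cannot be told apart.

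Runs in both directions also held genes of unrelated families. OR51E1, OR51E2, the protease gene MMP26 and OR51A7 on chromosome 11 had means from -3.10 to -1.37. TK1, AFMID and BIRC5 on chromosome 17 had means from -2.36 to -1.56, and 2 of them belong to the division lists above. On the X chromosome, 12.6% of 698 genes were 2-fold higher and 12.8% were 2-fold lower, against 9.58% and 9.86% of all placed genes, so both shares were above the background, with no test made. At least 8-fold higher were 4.44% of X-linked genes against 1.62% of all.

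Some large values belonged to 1 array. Among genes with a mean of at least 2-fold, the replicates differed most for ICAM4 (-0.87 and 7.41), CNMD (-0.12 and 7.87), ALDH1A1 (0 and 5.93), LINC00907 (-0.56 and 5.16), GTSF1 (6.23 and 1.46) and LINC02078 (0 and 3.91). In all but GTSF1 the high value was on replicate 2. ALDH1A1 encodes a retinal dehydrogenase and CNMD the cartilage protein chondromodulin. None of the 6 was called by limma (adjusted p from 0.17 to 0.38), and each is read by 1 feature. At least 2-fold in opposite directions on the 48 h arrays were 17 genes. Where at least 5 features carried the same accession, their median SD within an array was 0.19 on 48 h replicate 1 and 0.285 on replicate 2.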

How the data were processed

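Per the labels, total RNA of vehicle cells (Cy3) and azacytidine cells (Cy5) shared 4 two-colour arrays, 2 per time, all on 1 slide and with no dye swap. The authors deposited log10 ratios for 43376 features with values (1844 rows were blank), made with Agilent Feature Extraction 8.5.1.1 per the submitters' processing notes. The table states neither base nor direction, and its values were taken to be Cy5 over Cy3 on the log10 scale, as this software writes them. Values were converted to log2. Between 6011 and 6695 features per array stand at exactly 0, and intensities were not analysed here, so the depth of signal behind a ratio is unknown and the number of arrays limits precision.

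The 31332 features with 1 gene symbol in the platform annotation were averaged to 18334 genes, of which 1089 were 0 on all arrays. Features with several symbols (93) or none (11951) were left out. Of 31425 annotated features, 31291 matched the gene table by identifier. limma 3.58.1 in R 4.3.3 fitted 1 mean per time over all 4 arrays, tested 48 h against 0 and 48 h minus 24 h, and adjusted p by Benjamini-Hochberg over all genes, and the fit was tested on simulated data. Promoter windows were matched by symbol to protein-coding genes only (81.5% of 16721), a restriction made once the match over all genes was seen to be below 80%. Named genes followed a rule: up to 12 per direction with every feature at least 2-fold, up to 4 called members with the lowest p and the extremes of each list, 5 measured genes of prior interest, members of runs, and the 6 whose replicates differed most. The named genes and the 57 lists were chosen with earlier results of these data known. Alternatives covered weights, normalization, feature summaries, zeros, moderation and omitted arrays.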

Additional observations from a re-analysis of the deposited data

Results flagged for a closer look

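For 84 of the 170 genes named above, the limma test of 48 h minus 24 h passed an adjusted p of 0.05, and their differences follow in log2 units, negative where the ratio was lower at 48 h. None of these tests passes when either 24 h array is left out.

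Division and DNA genes differed in both directions. At 48 h the ratio differed from 24 h for MKI67 by -2.66, FOXM1 by -0.93, BIRC5 by -0.49, ORC1 by -1.55, UNG by -3.01 and CDKN1A by -2.10. It was higher at 48 h for NUF2 by 0.99, POLA1 by 1.58, RAD54B by 0.88 and the linker histone gene H1-1 by 2.12. The chromatin genes KDM1A and TRIM28 differed by -2.62 and -2.23.

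The named genes of protein synthesis, RNA processing and turnover were mostly lower at 48 h. RPS2 differed by -2.33, RPS3A by -3.67, EEF1A1 by -3.19, SF3B4 by -4.79, PSMC3 by -2.44, PSMD2 by -2.56, CDK8 by -1.49 and ATP6V1B2 by -3.61. The exceptions were RPL27A at 0.80, EEF2K at 1.099, SNRPD3 at 1.15, PSMB4 at 0.46 and CDK19 at 1.08.

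Most of the named enzymes and transporters of metabolism were also lower at 48 h. Of whole lists, 9 of 76 respiratory chain genes and 6 of 39 nucleotide synthesis genes were called lower than at 24 h. So were 11 of 40 hypoxia and glycolysis, 10 of 34 sterol and fatty acid and 8 of 39 glutathione and antioxidant genes. Of all genes 13.1% were. ATP5F1B differed by -3.75, SDHA by -2.27, ENO1 by -3.34, PGM1 by -3.70, NSDHL by -2.93, MSMO1 by -4.70, ADSL by -2.57, DCTPP1 by -3.64, SLC7A11 by -3.44 and GSTM1 by -1.52. COX7A1 at 1.66, HMOX1 at 1.19, ADM at 1.248 and ANGPTL4 at 0.71 were higher at 48 h.

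Stress, survival and immune genes were divided. HSPA8 differed by -3.87, ATF6 by -1.92, BCL2L1 by -2.03, SESN1 by -1.60 and HLA-E by -2.01. HSPA6 at 0.54, CHAC1 at 1.15, MT1M at 0.55, TRIM22 at 0.92 and IFI27 at 1.27 were higher at 48 h.

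Several of the named germline and epithelial genes were higher at 48 h than at 24 h. Of all genes 9.83% were called higher and 13.1% lower than at 24 h. Of 47 X-linked cancer-testis genes 2 were called higher and 6 lower, and of 29 secreted epithelial genes 0 and 4. Of 51 meiosis and piRNA genes these counts were 5 and 2, of 25 cleavage-stage genes 2 and 1, and of 25 pluripotency genes 2 and 1. Of 19 S100 genes they were 2 and 0, and of 13 galectins 4 and 0. Apart from the higher count of the galectins, no count lay far above the shares of all genes. Those counts are no result about the lists. MAEL differed by 1.18, CT45A1 by 1.31, SPANXA1 by 1.41, DPPA2 by 0.80, HBA1 by 1.64 and PRB3 by 0.78. LGALS3 differed by 1.82, LGALS7 by 1.52, LGALS7B by 1.03, S100A2 by 1.06, S100A10 by 1.20, KRT15 by 1.47, KRT19 by 1.49, TIMP1 by 2.11 and PDLIM4 by 1.04. MMP11, below 0 at both times, was less low at 48 h by 0.45. KCNK17 and GPRC5A differed by 1.19 and 0.87. TFF3 differed by -0.63 and CLDN4, a luminal epithelial marker, by -3.43, both lower at 48 h.

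Prostate, adhesion and other genes made up the rest, all lower at 48 h. STS differed by -4.51, NCOA4 by -3.19, ACP3 by -2.62, OR51E2 by -0.98, ITGB1 by -3.34, LUM by -1.36 and PCDHB14 by -0.40. LYPLA1 differed by -5.16, APC by -2.78, RIC8B by -2.86, RAB29 by -2.69, AIDA by -2.52, SEPTIN3 by -1.79, SNRPN by -1.61 and OPRK1 by -1.28.

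Among 11951 features without a gene symbol, which no comparison above uses, 878 (7.35%) were at least 2-fold higher and 1299 (10.9%) at least 2-fold lower on both 48 h arrays. Their means ran from -4.89 to 6.98.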

How the results depend on the processing

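The 48 h counts of 3329 higher and 3787 lower genes depended most on how error was estimated. With array weights per time they were 1758 and 2049, and with limma's test against a 2-fold threshold 527 and 318. They were 0 and 0 in the fit of the 48 h arrays alone, and 0 and 0 with the replicate block (lowest adjusted p 0.058, 8152 genes at an unadjusted p under 0.05). Same-numbered replicates of the 2 times did not deviate together (r = -0.035 across 18334 genes). Array noise alone can bring such a correlation near 0, so it cannot decide whether the numbers pair the samples. Leaving out 1 replicate gave between 0 and 3673 higher and between 0 and 4630 lower genes, with 0 whenever a 24 h array was left out, where the spread came from the 48 h arrays alone. Without 48 h replicate 1 or 2, the lone array was assumed to vary like the 24 h arrays.

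The counts of the difference, 1802 higher and 2409 lower at 48 h than at 24 h, were 0 and 0 with the replicate block and 1 and 53 against a 2-fold threshold. They were 3549 and 3812 with features at exactly 0 removed and 3242 and 3642 with genes at 0 on all arrays removed. The higher count was 3150 with arrays scaled to one spread, 3673 after quantile normalization and 939 with robust moderation. Leaving out 1 replicate gave between 0 and 3339 higher and between 0 and 4447 lower genes. The cause of these shifts was not tested. Of the 57 list medians, 11 moved by more than the SD between arrays without 48 h replicate 1, 19 without replicate 2 and 25 with features at exactly 0 removed. The counts that were 2-fold on both 48 h arrays stayed within 1.5 times under each alternative run for them.

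Of the 170 named genes, 158 were called, and 144 of these were called in the same direction with array weights. Omitting 1 of the 48 h replicates turned 5 genes, none of them called. CDKN1A ran from -0.0049 to 0.74, CNMD from -0.12 to 7.87, ICAM4 from -0.87 to 7.41, LINC00907 from -0.56 to 5.16 and S100A3 from -0.98 to 0.39. Among named genes read more than once, 26 of 73 had values over 1 log2 unit apart between features. Signal over background was not analysed here, so dim features could not be removed.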
